A study of Mus musculus with 11 samples.

Results

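The enzymes described here are the xenobiotic-metabolising enzymes of mouse intestinal organoids. They are 69 protein-coding genes of the cytochrome P450 (Cyp), UDP-glucuronosyltransferase (Ugt1 and Ugt2), cytosolic sulfotransferase (Sult) and glutathione S-transferase (Gst) families, among 37310 genes counted. The members were taken by symbol, from prefixes Cyp1, Cyp2, Cyp3, Cyp4, Ugt1, Ugt2, Sult and the classes of cytosolic Gst with pseudogenes left out. They were chosen by their level: a gene had to reach 1 CPM, its unstranded reads scaled to the gene reads of the library, in 3 or more of 11 libraries. Of 153 protein-coding genes with such a symbol, 69 did so, 4 reached 1 CPM in 1 or 2 libraries and 80 stayed below it in every library. That these genes were expressed is therefore no finding. All 69 passed the later filter on low counts, and 60 reached 1 CPM in all 11 libraries. Cyp4f15 would have met the minimum on late libraries alone but not on early ones, Cyp4f39 and Sult4a1 on early libraries alone but not on late ones, and Cyp2c37 on neither alone, so a difference between stages in these 4 is tied to how they were chosen. Just inside the rule were Sult4a1 and Cyp4f39, whose third-highest libraries had 1.05 and 1.39 CPM. Just outside were Cyp11a1, with 0.848 CPM, and Cyp2e1, with 0.837 CPM.

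Phase I enzymes such as the P450s oxidise foreign compounds, fatty acids and steroids, with electrons from NADPH that reach them through cytochrome P450 reductase. Phase II enzymes attach a polar group: glucuronic acid by the UGTs, sulfate by the SULTs and glutathione by the GSTs. Transporters then export the conjugates. In the gut these enzymes sit mainly in absorptive enterocytes and give the first pass of metabolism of swallowed drugs and food compounds, and several are induced through the nuclear receptors PXR and CAR, the aryl hydrocarbon receptor or NRF2.

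Bulk RNA sequencing was done on organoids grown from intestinal crypts of mice with the genotype Lgr5-EGFP-IRES-creERT2, a stem cell reporter that all libraries carry. The organoids grew in Matrigel with IntestiCult medium and were passaged every 7 days, and the design text names culture passage and donor age as what the study set out to follow. Late libraries are passages 11, 12 and 13 of mouse_285 and of mouse_283 (n = 6), and early libraries are passages 2 and 4 of mouse_285 and passages 2, 3 and 4 of mouse_283 (n = 5). Passages are those of the sample titles. The names of the deposited tables give a passage number 1 higher for every library, which changes no library's stage or order. There is 1 library for each animal and passage, so 2 animals stand behind every comparison. The protocol gives donor ages of 4 and 24 months but no label ties an age to an animal, so ages were not compared. No label names a batch of culture or sequencing, and a batch that ran with passage cannot be told apart from it. The p-values measure the spread between these libraries.

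Libraries held between 15114132 and 28949911 gene reads. Passages 3 and 4 of mouse_283 stood apart by base composition. For every 10 points of GC content, log2 expression relative to the mean of all libraries was higher by 0.974 in passage 3 and by 0.778 in passage 4, while the remaining 9 libraries had slopes between -0.407 and 0.199. The results below are repeated with these 2 libraries left out, and also with offsets that correct for GC content and transcript length. The tissue label, small intestine epithelium, was checked against marker genes. Markers of enterocytes summed to between 4335 and 6644 normalised CPM in late and between 6046 and 8962 in early libraries. The immune marker Ptprc did not pass 0.0326 normalised CPM in a late library and was at 0 in every early one. The immune marker Tyrobp, the stromal marker Dcn, the endothelial marker Kdr, the hepatocyte marker Fgb and the colon marker Car1 were at 0 in all 11 libraries. Other genes of these lists were present. Hepatocyte markers summed to between 529.9 and 1223 normalised CPM late and between 703.8 and 1778 early. Of these, Cps1 had 929.2 late and 1065 early on average. Immune markers summed to between 7.551 and 13.76 late and between 9.961 and 22.26 early. Stromal markers had 9.983 to 18.18 and 11.95 to 19.33, and colon markers 13.08 to 17.93 and 12.5 to 25.07. The protocol also mentions dissection of colon.

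The members fell into 31 P450s of families 1 to 4, 9 UGTs, 6 SULTs and 20 GSTs. A further 3 P450 genes, Cyp20a1, Cyp27a1 and Cyp39a1, matched only because their family number begins with the same digit, and they are described apart. In the annotated order of protein-coding genes many members lie in runs, counted here where each is at most 8 genes from the next, so other genes can stand between them. A single run of chromosome 5 holds Ugt2b34, Ugt2b35, Ugt2b36, Ugt2b5 and Ugt2a3 with Sult1b1 and Sult1d1. Other runs are 8 Cyp2c genes and 3 Gstp genes on chromosome 19, 7 Cyp4f genes on chromosome 17, 7 Gstm genes on chromosome 3, and Cyp2d22 with Cyp2d26 on chromosome 15. Such gene families share sequence, which limits what gene counts can separate. Of the 50-base words in its transcripts, Gsta1 shared 89.7% with another gene, Ugt1a1 80.2%, Gstp2 72.6%, Ugt1a7c 69.3%, Gsta2 64.2%, Gstp1 62.3% and Ugt1a9 62%. Levels of these 7 genes are uncertain for that reason. The Ugt1a genes also use common last exons, where a read cannot be given to one of them.

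Promoters of 62 of the 69 members were matched in RefSeq, build GRCm38.p6. The sequences below belong to members that differed between late and early passages. They are a pair from the UGT run, a pair from the Cyp4f run, which has the uncalled members Cyp4f40 and Cyp4f15 between them, and a GST promoter with a motif of a xenobiotic response. They are shown because the members of each pair changed in the same direction. Each runs from 250 bases before the annotated start to 50 bases after it. In the pair of glucuronosyltransferases, which was higher late, capitals mark the longest run that both promoters share, 24 bases long, from base -31 to -8 in Ugt2b36 and from -28 to -5 in Ugt2b5. Of 27025 promoters 3 hold this run, the other being that of Ugt2b37.
Ugt2b36 (chr5:87092506-87092805, minus strand): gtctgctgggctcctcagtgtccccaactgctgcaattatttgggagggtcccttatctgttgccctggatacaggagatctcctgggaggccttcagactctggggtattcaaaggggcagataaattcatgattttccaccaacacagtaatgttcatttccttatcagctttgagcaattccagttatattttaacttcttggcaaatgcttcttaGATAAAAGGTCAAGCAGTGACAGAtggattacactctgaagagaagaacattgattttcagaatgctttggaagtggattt
Ugt2b5 (chr5:87140291-87140590, minus strand): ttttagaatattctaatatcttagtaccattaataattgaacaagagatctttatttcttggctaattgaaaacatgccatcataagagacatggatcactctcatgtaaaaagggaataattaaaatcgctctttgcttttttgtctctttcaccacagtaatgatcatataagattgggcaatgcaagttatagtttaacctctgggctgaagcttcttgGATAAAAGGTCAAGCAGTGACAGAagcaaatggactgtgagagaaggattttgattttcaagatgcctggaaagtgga
Over their whole length these promoters are identical in 61.4% of aligned positions. In the next promoter, that of a glutathione transferase that was also higher late, capitals mark the ARE core TGACNNNGC on the given strand and the HNF1 motif GTTAAT on the opposite strand, at -121 and -149.
Gsta3 (chr1:21240335-21240634, plus strand): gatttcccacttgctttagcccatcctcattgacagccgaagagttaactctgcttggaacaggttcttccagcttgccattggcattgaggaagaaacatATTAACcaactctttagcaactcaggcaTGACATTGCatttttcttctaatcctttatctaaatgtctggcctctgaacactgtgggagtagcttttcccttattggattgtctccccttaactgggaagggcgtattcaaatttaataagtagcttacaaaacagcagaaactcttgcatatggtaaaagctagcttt
In the pair of fatty acid hydroxylases that was lower late, capitals mark the XRE core GCGTG, which lies on the opposite strand in both, at -224 in Cyp4f16 and at -237 in Cyp4f14.
Cyp4f16 (chr17:32536307-32536606, plus strand): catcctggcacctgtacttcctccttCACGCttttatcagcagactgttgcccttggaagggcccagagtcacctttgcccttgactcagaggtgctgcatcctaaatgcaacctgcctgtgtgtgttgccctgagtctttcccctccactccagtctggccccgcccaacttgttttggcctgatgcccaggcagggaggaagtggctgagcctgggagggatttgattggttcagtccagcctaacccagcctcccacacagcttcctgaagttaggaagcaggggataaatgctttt
Cyp4f14 (chr17:32917307-32917606, minus strand): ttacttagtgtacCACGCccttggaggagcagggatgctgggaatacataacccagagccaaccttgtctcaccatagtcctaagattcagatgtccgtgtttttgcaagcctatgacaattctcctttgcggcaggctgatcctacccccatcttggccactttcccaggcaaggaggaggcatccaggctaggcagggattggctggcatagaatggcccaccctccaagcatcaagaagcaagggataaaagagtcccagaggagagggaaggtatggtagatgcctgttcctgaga
This pair is identical in 51.2% of aligned positions. Motifs were searched on both strands and overlaps were allowed. GCGTG was present in 32.5% of all promoters and in 19 of the 62, TGACNNNGC in 12.5% and 6, GTTAAT in 7.2% and 9, the HNF4 motif CAAAGTC in 4.36% and 8, and TATAAA in 14.2% and 14. A match describes letters only. Of the members that differed between stages, Cyp2d22 and Cyp2u1 have no promoter here.

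Per kilobase of exon sequence that belongs to a single gene, the most abundant member was Gstm3, a mu class transferase, at 509 CPM per kilobase over all libraries. Then came Gsta4, which conjugates the lipid peroxidation product 4-hydroxynonenal, at 427, Gstm1 at 375, the P450 Cyp2c55 at 323 and Gstp1 at 263. These are levels, and the lowest were Sult4a1 at 0.359 and Cyp1b1, which oxidises hormones and polycyclic hydrocarbons, at 0.346. Transferases and P450s thus stood at both ends of the range of levels. Summed over members, P450s of families 1 to 4 took 2677 ± 327 normalised CPM in late and 3340 ± 781 in early libraries (SD, n = 6 and 5). The GSTs took 3266 ± 294 in late and 3670 ± 1862 in early libraries, the UGTs 956 ± 123 in late and 641 ± 370 in early libraries, and the SULTs 209 ± 49.1 in late and 169 ± 50.3 in early libraries. Sums of these 4 classes overlapped between stages. For GSTs and UGTs the early SD was several times the late one. Passage 3 of mouse_283 had the highest GST sum, and its passages 3 and 4 had the lowest UGT sums.

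Between late and early passages 11 members differed, 7 lower and 4 higher late. All 7 that fell were P450s: Cyp2d22, Cyp2d26, Cyp2u1, Cyp2w1, Cyp4f14, Cyp4f16 and Cyp4v3. All 4 that rose were conjugating enzymes: Ugt2b36, Ugt2b5, Gsta3 and Sult6b2. Thus, in edgeR, 7 of 31 P450s of families 1 to 4 fell and none rose, and of 35 UGTs, SULTs and GSTs 4 rose and none fell. In DESeq2 2 GSTs fell as well. Among all 14172 genes tested 3.05% were called, 2.34% lower and 0.706% higher late. Another 58 members did not pass the test, an edgeR quasi-likelihood test adjusted over all genes tested, and 23 members had an unadjusted p under 0.05. The median log2 change over members was -0.22, beside -0.02 over all genes tested. It was -0.57 for the 31 P450s, with 25 negative, and between -0.57 and -0.40 under every scaling tried. All 11 also passed in DESeq2, which called 9.49% of genes and 15 members. Its 4 further calls, all lower, were Cyp4b1, Cyp4f13, Gstm4 and Gstp3, of which Cyp4b1 and Cyp4f13 are named after their values were seen. All 11 passed without passages 3 and 4 of mouse_283 too, where 4.76% of genes (1.37% higher, 3.4% lower) and 14 members were called, with Cyp3a13, Gstp3 and Sult1b1 added as lower. After the GC and length correction 7.19% of genes (3.06% higher, 4.14% lower) and 13 members were called and 9 of the 11 remained. Those lost were Gsta3, with a log2 change of 0.54 and adjusted p = 0.247, and Cyp2w1, with -0.93 and 0.1. The number of members called depended on single libraries. It was 24 without passage 2 of mouse_283, which leaves its early stage with the pair that stood apart, but 34.7% of all genes were called there, so the members were called at about the rate of all genes. It was 5 without passage 4 of mouse_285 (1.17% of genes), 7 without the animal in the model (2.82% of genes), 7 without passage 12 of either animal or passage 13 of mouse_283 (1.26% to 1.46% of genes), and between 8 and 11 without any other single library (1.41% to 3.1% of genes). None of the 11 changed sign in any of these fits.

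**Figure D1:**
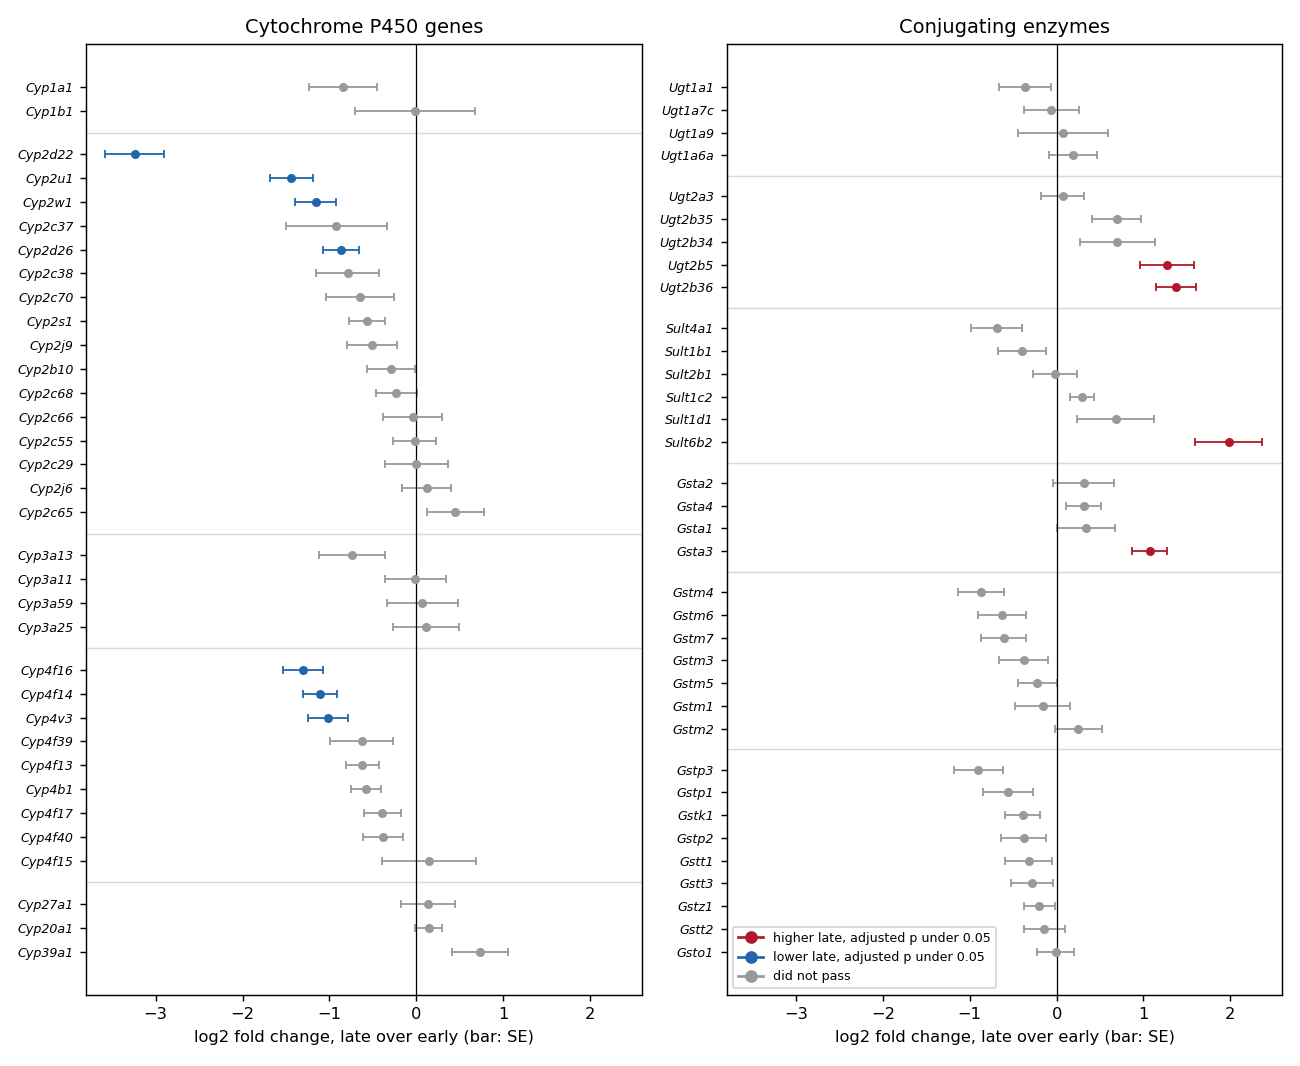
Log2 fold change of all 69 members, late over early, on the x axis, with genes down the page by family (P450s left, conjugating enzymes right). Points are estimates, bars their standard errors, and colours mark the 7 members that were lower and the 4 that were higher late. The 7 lower ones all stand in the P450 panel and the 4 higher ones all in the panel of conjugating enzymes.

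Cyp2d22 fell most. It is a mouse gene of the subfamily that in humans includes the drug-metabolising enzyme CYP2D6. In late libraries it ran from 0.62 to 1.93 normalised CPM with a median of 1.17, which rests on 11 to 46 reads. Early libraries had 11.8 and 10.0 normalised CPM in passages 2 and 4 of mouse_285, and 11.6, 14.8 and 5.52 in passages 2, 3 and 4 of mouse_283. The stages did not overlap, and the lowest early library was passage 4 of mouse_283. The log2 change was -3.24 (SE 0.34, adjusted p = 0.000761), and it lay between -3.42 and -3.05 when any 1 library was left out.

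Cyp2d26, of the same run on chromosome 15, was far more abundant, with 185 CPM per kilobase of its own exon sequence against 1.41 for Cyp2d22, and fell less. Late libraries ran from 200.2 to 290 normalised CPM with a median of 241. Early libraries had 362 and 456 in mouse_285 (passages 2 and 4) and 355, 697 and 335 in mouse_283 (passages 2, 3 and 4). All late libraries lay below all early ones, and passage 3 of mouse_283 was far above the rest. On the log2 scale it changed by -0.87 (SE 0.21, adjusted p = 0.044), close to the threshold. The call was lost without any single late library or without passage 2 or 4 of mouse_285, with adjusted p from 0.0553 to 0.158, and with DESeq2's size factors.

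The Cyp4 genes mostly encode fatty acid omega-hydroxylases, and Cyp4f14 also hydroxylates leukotriene B4. Their summed level was 325 ± 47.5 normalised CPM in late and 651 ± 154 in early libraries (SD, n = 6 and 5), and late libraries, from 271 to 406, lay below early ones, from 494 to 900.3. Of 9 Cyp4 members 3 fell and 8 had a negative log2 change. Cyp4f16 ran from 39.1 to 68.1 normalised CPM in late libraries, with a median of 51.0. In early libraries it had 119 and 123 in passages 2 and 4 of mouse_285 and 107, 202 and 78.3 in passages 2, 3 and 4 of mouse_283. The stages did not overlap, and passage 3 of mouse_283 was highest. Its log2 change of -1.31 (SE 0.23, adjusted p = 0.0109) passed whichever single library was left out.

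Cyp4f14, of the same run on chromosome 17, ran from 121 to 224 normalised CPM in late libraries with a median of 164. It had 320 and 378 in passages 2 and 4 of mouse_285, and 304, 501 and 260 in passages 2, 3 and 4 of mouse_283. Again no late library reached an early one. Its log2 change was -1.11 (SE 0.20, adjusted p = 0.0121), and only without passage 4 of mouse_285 did the call miss the threshold, at 0.0501. The promoters of this pair are printed above, with the XRE core that 32.5% of all promoters carry.

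Cyp4v3 is the mouse counterpart of human CYP4V2, whose loss causes a crystalline eye disease. Late libraries ran from 15.6 to 37.0 normalised CPM with a median of 28.7. Early libraries had 71.7 and 54.9 in mouse_285 (passages 2 and 4) and 67.9, 31.5 and 40.9 in mouse_283 (passages 2, 3 and 4). The stages overlapped through passage 3 of mouse_283, and within each animal they did not. Late over early, the log2 change was -1.02 (SE 0.23, adjusted p = 0.0317). The call was lost without the animal in the model, without any late library other than passage 11 of mouse_283, and without passage 2 or 4 of mouse_285, with adjusted p up to 0.0936.

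Cyp2u1, a hydroxylase of long-chain fatty acids, ran from 1.66 to 6.95 normalised CPM in late libraries, with a median of 3.34. Early libraries had 9.86 and 11.6 in passages 2 and 4 of mouse_285 and 8.48, 7.17 and 6.71 in passages 2, 3 and 4 of mouse_283. Passage 13 of mouse_285 overlapped the lowest early library, of the other animal. Cyp2u1 changed by -1.44 on the log2 scale (SE 0.25, adjusted p = 0.0112), with no call lost to a single library, though it was lost without the animal in the model.

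Cyp2w1, known in humans from fetal gut and colon tumours, ran from 3.36 to 12.1 normalised CPM in late libraries with a median of 6.79. Early libraries had 15.4 and 18.1 in mouse_285 (passages 2 and 4) and 15.1, 10.9 and 14.7 in mouse_283 (passages 2, 3 and 4). Within each animal all late libraries were below all early ones, and the pooled stages overlapped. The log2 change was -1.16 (SE 0.24, adjusted p = 0.0229). The call was lost without the animal in the model, without passage 11, 12 or 13 of mouse_283, and without passage 12 or 4 of mouse_285, with adjusted p up to 0.076.

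**Figure D2:**
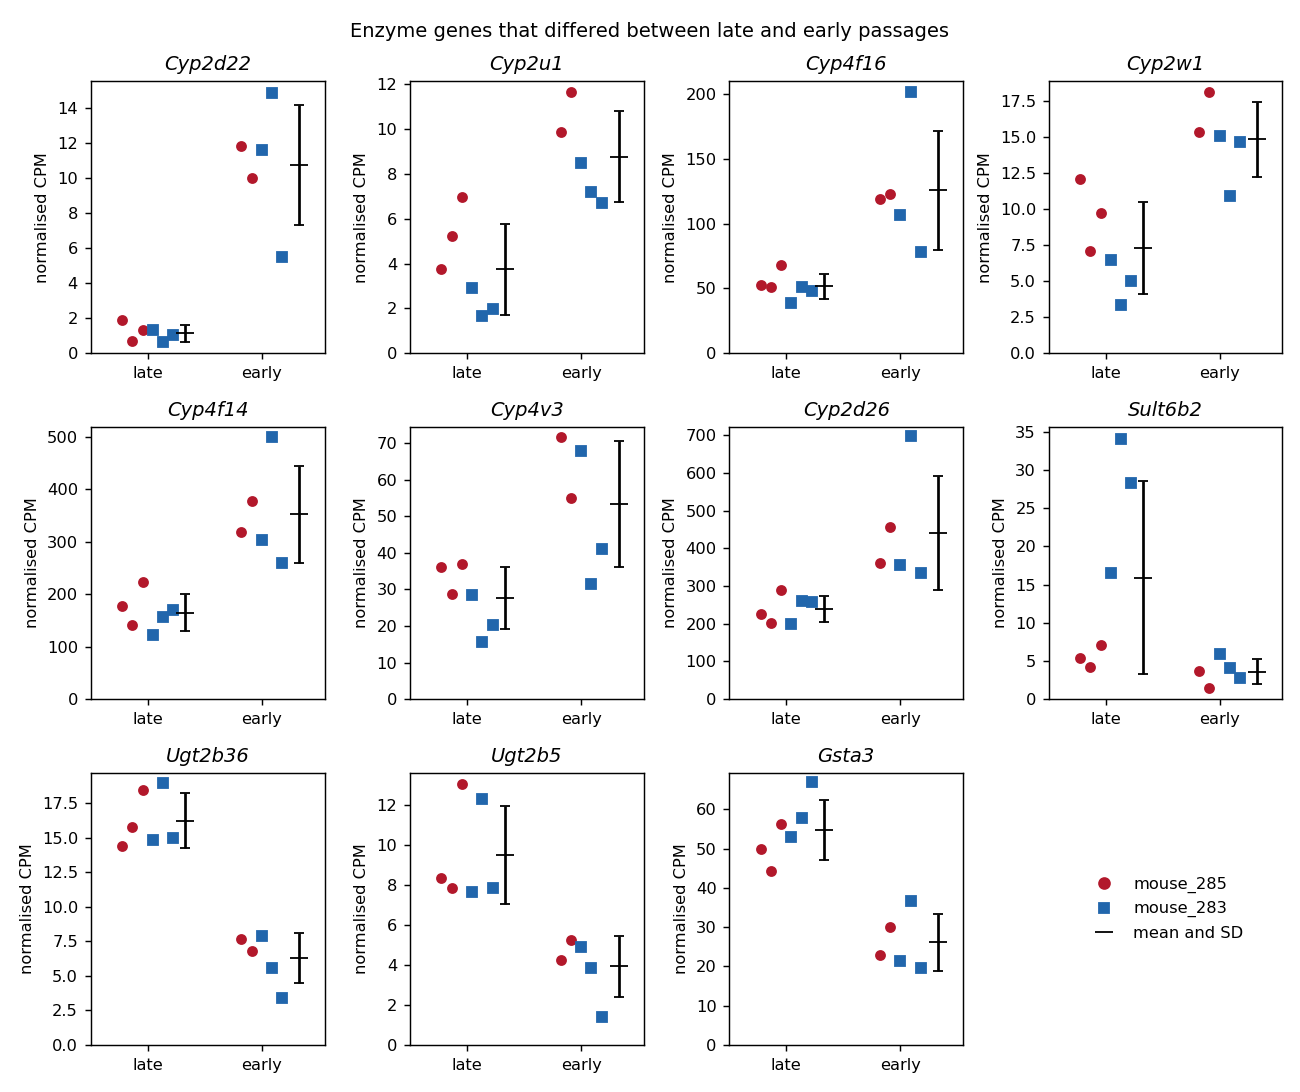
Normalised CPM (y axes, from 0, a scale for each gene) of the 11 members that differed, in 6 late libraries on the left and 5 early libraries on the right. Each point is a library, coloured by animal, and bars give the mean and SD. Late libraries of Cyp2d22 lie at or below 1.93 and early ones at or above 5.52, while Sult6b2 late is high in mouse_283 only.

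Of the conjugating enzymes, both small UGT genes of the 2b cluster rose. Ugt2b36 ran from 14.4 to 19.0 normalised CPM in late libraries with a median of 15.4. Early libraries had 7.65 and 6.79 in passages 2 and 4 of mouse_285 and 7.87, 5.61 and 3.43 in passages 2, 3 and 4 of mouse_283. All late libraries lay above all early ones, and passage 4 of mouse_283 was lowest. Ugt2b36 changed by 1.37 on the log2 scale (SE 0.23, adjusted p = 0.00892). With passages 3 and 4 of mouse_283 left out the change was 1.13, and with the GC and length correction 0.96, and it passed in both.

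Ugt2b5 ran from 7.63 to 13.0 normalised CPM in late libraries with a median of 8.10. Early libraries had 4.25 and 5.26 in mouse_285 (passages 2 and 4) and 4.88, 3.83 and 1.41 in mouse_283 (passages 2, 3 and 4). Here too the stages did not overlap. Its log2 change of 1.27 (SE 0.31, adjusted p = 0.0469) lay close to the threshold. The call was lost without any single late library, without passage 2 or 4 of mouse_285 and without passage 3 of mouse_283, with adjusted p from 0.0699 to 0.134. Ugt2b5 shared 41.7% of its 50-base words, mostly with Ugt2b38, which stayed at or below 0.0585 CPM in every library.

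More abundant genes of the same run, Ugt2b34 and Ugt2b35, did not pass in edgeR. Ugt2b34 ran from 442 to 684 normalised CPM in late libraries with a median of 650. In early libraries it had 530 and 392 in mouse_285 (passages 2 and 4) and 708, 153 and 86.7 in mouse_283 (passages 2, 3 and 4). The stages overlapped, and the low early values were those of passages 3 and 4 of mouse_283. Its log2 change was 0.70 (SE 0.43, adjusted p = 0.307), and 0.12 without those libraries. It passed with no filter on low counts (0.77, adjusted p = 0.0123) and without passage 2 of mouse_283 (1.27, adjusted p = 0.0298), the fit in which 34.7% of genes passed. All 5 Ugt2 members had positive log2 changes, from 0.07 to 1.37, though for Ugt2a3 the sign turned, to -0.25 with passages 3 and 4 of mouse_283 left out and to -0.27 under the GC and length correction. The median of all 9 UGTs was 0.19, and it changed sign to -0.13 without passages 3 and 4 of mouse_283 and to -0.09 after the GC and length correction. No Ugt1 member passed. Ugt1a7c had 79.6 ± 23.3 normalised CPM late and 82.97 ± 38.8 early, and Ugt1a1, the enzyme of bilirubin glucuronidation, had 8.995 ± 3.40 late and 11.2 ± 4.22 early (SD, n = 6 and 5).

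Gsta3, an alpha class transferase that in mice detoxifies the aflatoxin epoxide, ran from 44.3 to 67.0 normalised CPM in late libraries with a median of 54.6. Early libraries had 22.9 and 30.1 in passages 2 and 4 of mouse_285 and 21.3, 36.8 and 19.5 in passages 2, 3 and 4 of mouse_283. All late libraries lay above all early ones. Gsta3 changed by 1.07 on the log2 scale (SE 0.20, adjusted p = 0.0126). With passages 3 and 4 of mouse_283 left out the change was 1.13. The GC and length correction brought it to 0.54 (adjusted p = 0.247), which ends the call. The gene has a GC content of 40.4%.

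Sult6b2, of the cytosolic sulfotransferases, rose most, and unequally. Late libraries of mouse_285 had 5.37, 4.24 and 7.14 normalised CPM in passages 11, 12 and 13, and those of mouse_283 had 16.5, 34.03 and 28.3. Early libraries had 3.74 and 1.43 in passages 2 and 4 of mouse_285 and 5.86, 4.04 and 2.74 in passages 2, 3 and 4 of mouse_283. The late libraries of mouse_283 stood far above all others, and late and early libraries overlapped between the animals though not within either. The log2 change was 1.98 (SE 0.39, adjusted p = 0.0182). The call was lost without passage 4 of mouse_285 (adjusted p = 0.0605) and without the animal in the model. No other SULT passed. Sult1c2, the most abundant SULT per kilobase, had 75.1 ± 21.4 late and 63.3 ± 13.8 early (SD, n = 6 and 5), with adjusted p = 0.228.

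None of the other 19 GSTs passed in edgeR, while DESeq2 called Gstm4 and Gstp3 lower. Their class median was -0.25 on the log2 scale, and it changed sign to 0.15 without passages 3 and 4 of mouse_283, so no direction is given for the class. All 4 Gsta members had positive log2 changes, from 0.31 to 1.07, also without those libraries and after the correction. All 9 members of the kappa, omega, pi, theta and zeta classes had negative ones, from -0.90 to -0.01, with a median of -0.32 that turned to 0.05 without those libraries. Gstm3 ran from 481 to 727 normalised CPM in late libraries with a median of 575. In early libraries it had 571 and 792 in mouse_285 (passages 2 and 4) and 562, 1469 and 445 in mouse_283 (passages 2, 3 and 4). The stages overlapped, and passage 3 of mouse_283 stood out. Gsto1, which reduces dehydroascorbate, had 413 ± 48.1 normalised CPM late and 424 ± 152 early (SD, n = 6 and 5), and its log2 change was -0.01 (SE 0.21), at an adjusted p of 0.97.

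Some members did not pass in edgeR although their stages were apart. Gstm4 had 20.1 ± 3.07 normalised CPM in late and 37.2 ± 17.4 in early libraries (SD, n = 6 and 5), with no overlap and adjusted p = 0.0882. It passed in DESeq2 (adjusted p = 0.0281), with no filter on low counts (0.016) and without passage 2 of mouse_283 (0.0173). In all, 6 members had every late library below every early one, beside 3.51% of all genes tested. They were Cyp2d22, Cyp2d26, Cyp4f14, Cyp4f16, Gstm4 and Cyp4f13, the last named after its values were seen. Another 3 had every late library above every early one, beside 2.21% of genes: Ugt2b36, Ugt2b5 and Gsta3. Gstp3 had 30.6 ± 2.93 normalised CPM late and 57.8 ± 32.0 early (SD, n = 6 and 5). It missed the threshold in edgeR (adjusted p = 0.0989). It passed in DESeq2 (0.0363), with no filter on low counts (0.00739), and with passage 2 (0.0183) or passages 3 and 4 (0.0351) of mouse_283 left out.

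Cyp1a1, which the aryl hydrocarbon receptor induces, ran from 6.60 to 24.7 normalised CPM in late libraries with a median of 9.64. In early libraries it had 11.4 and 23.3 in mouse_285 (passages 2 and 4) and 24.2, 38.2 and 16.9 in mouse_283 (passages 2, 3 and 4). The stages overlapped, and the log2 change was -0.84 (SE 0.39), at an adjusted p of 0.212. With no filter on low counts it passed (-0.79, adjusted p = 0.0389). Cyp3a13, the most abundant Cyp3 member per kilobase, had 112 ± 41.4 late and 187 ± 116 early (SD, n = 6 and 5). Its log2 change was -0.74 (SE 0.38, adjusted p = 0.246). It was -1.25 (adjusted p = 0.00539) without passages 3 and 4 of mouse_283 and -0.99 (adjusted p = 0.0283) after the GC and length correction, and passed in both, as it did with no filter on low counts (-0.68, adjusted p = 0.0296). No Cyp2c member passed: Cyp2c55, the most abundant P450 per kilobase, had 620 ± 47.7 late and 628 ± 264 early (SD, n = 6 and 5), and its log2 change was -0.02 (SE 0.25), at an adjusted p of 0.958. The correction added Cyp2c38 (-1.14, adjusted p = 0.0416), Cyp2c68 (-0.56, adjusted p = 0.0369) and Sult1b1 (-0.70, adjusted p = 0.0432), named after their values were seen. At the edge of the rule, Cyp4f39 had 0.931 ± 0.265 normalised CPM late and 1.47 ± 0.624 early, and Sult4a1 had 0.694 ± 0.232 late and 1.15 ± 0.208 early (SD, n = 6 and 5), and neither passed. Of the P450s of other families, Cyp20a1 had 25.0 ± 2.54 late and 22.9 ± 4.14 early, and Cyp39a1, an oxysterol hydroxylase, had 8.90 ± 1.75 late and 5.40 ± 2.79 early (SD, n = 6 and 5), and none of these 3 P450s passed. Without passage 2 of mouse_283 Cyp39a1 did (0.92, adjusted p = 0.047).

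**Figure D3:**
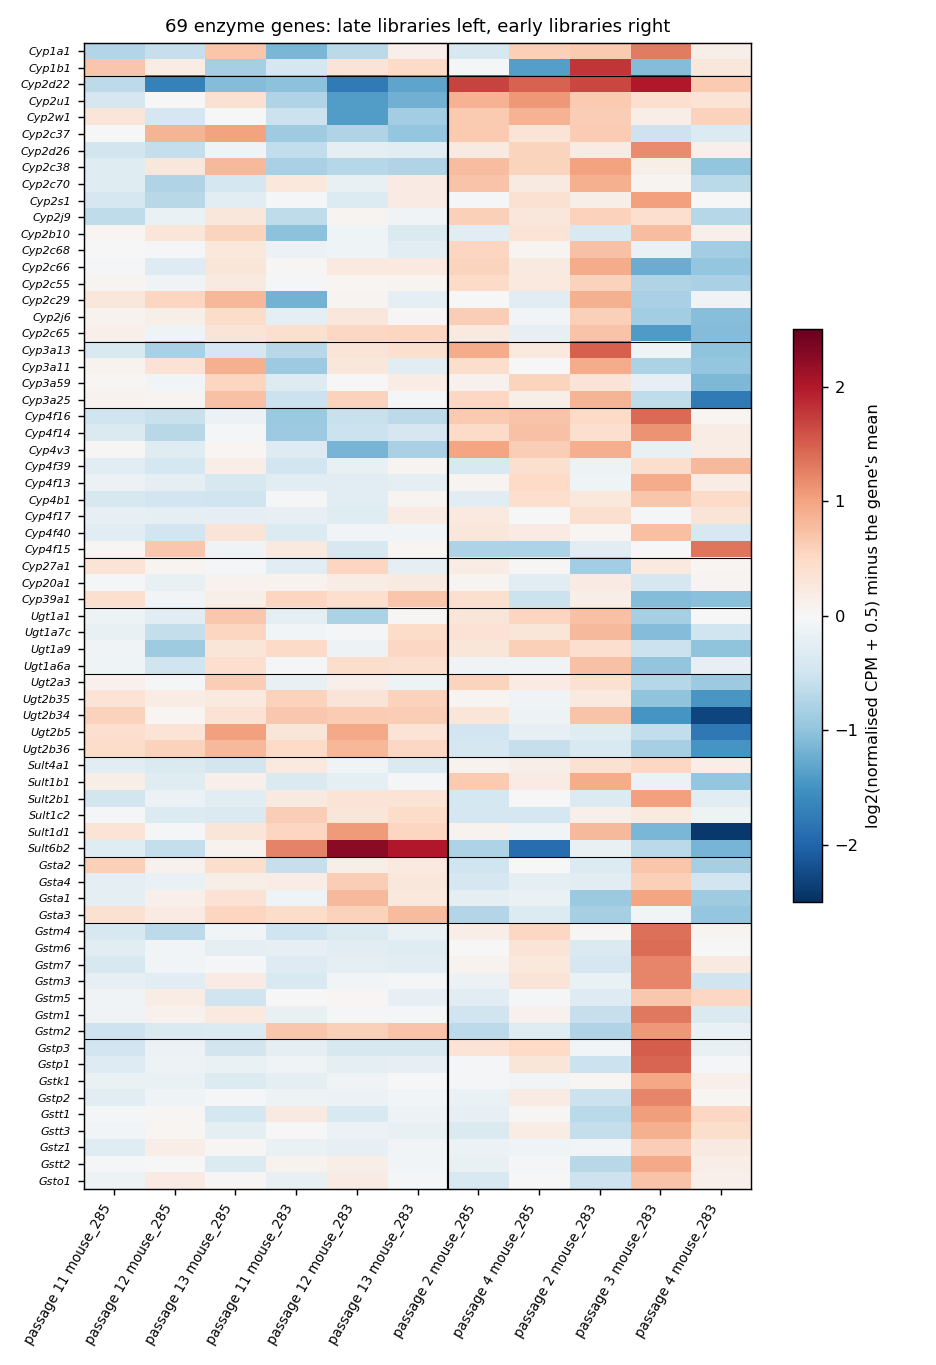
All 69 members (rows, by family) in all 11 libraries (columns, late left and early right of the line). Colour gives log2(normalised CPM + 0.5) minus the gene's mean over the libraries. Passages 3 and 4 of mouse_283, the last columns, differ from the other early libraries in whole families, with GSTs high in passage 3 and UGTs low in both.

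The same comparison was made within each animal. All 11 members kept their sign in both, and of all 69 members 50 had the same sign in both. The 11 were called on these same libraries, so their equal sign is no separate support. The share over all genes is not given. In mouse_285 none of the 69 members and none of the genes passed the edgeR test (3 late against 2 early libraries), while 13 members and 5.38% of genes had an unadjusted p under 0.05, and DESeq2 was not run on this contrast. In mouse_283 6 members passed, beside 1.42% of genes (0.332% higher, 1.09% lower): Cyp2d22, Cyp2u1, Cyp2w1 and Cyp4f16 were lower and Sult6b2 and Ugt2b36 higher. That count was 0 without passage 12 or 13 of mouse_283 (0.286% and 0.254% of genes), 2 without passage 12 of mouse_285, 3 without passage 11 of mouse_283 or another library of mouse_285, and 4 and 5 without passages 3 and 4 of mouse_283 (0.761% to 1.1% of genes over these fits). It was 40 without passage 2 of mouse_283, where 54.8% of all genes were called. Sizes were close for Cyp2d22, whose log2 change was -3.04 in mouse_285 and -3.41 in mouse_283, and for Ugt2b36, with 1.17 and 1.54. They were further apart for Sult6b2, with 1.11 in mouse_285 and 2.65 in mouse_283. Whether the change differed between animals was tested with an interaction term. No member and no gene passed in edgeR, 3 members (Sult6b2, Cyp2c37 and Cyp4f15, beside 2.13% of genes) had an unadjusted p under 0.05, and DESeq2 called no member. For Sult6b2 the interaction was -1.53 on the log2 scale (SE 0.64, adjusted p = 0.99). Without passage 2 of mouse_283 12 members and 16.5% of all genes passed the interaction test.

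**Figure D4:**
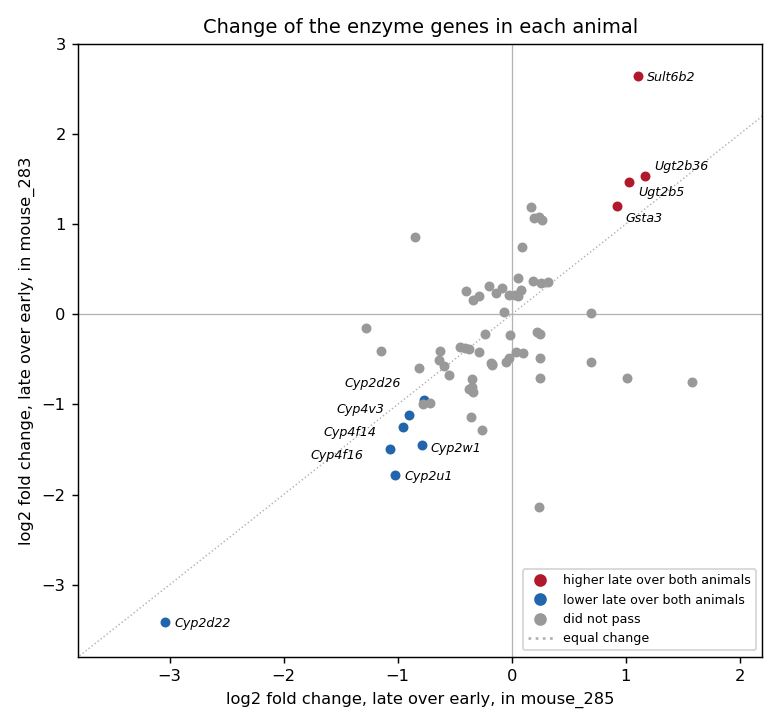
Log2 fold change late over early in mouse_285 (x axis) and in mouse_283 (y axis) for each of the 69 members, with the 11 that differed over both animals in colour and named. The 11 lie in the quadrants of equal sign, Cyp2d22 lowest and Sult6b2 above the dotted line of equal change.

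Between the animals themselves, with the stage in the model, no member passed in edgeR, beside 0.0776% of genes. No member had every library of one animal beyond every library of the other, beside 0.515% of genes. At an unadjusted p under 0.05 there were 10 members and 5.15% of genes. DESeq2 called 4 members and 0.891% of genes, with Cyp2c37 and Cyp2u1 higher and Sult1c2 and Sult6b2 lower in mouse_285. Cyp2c37 and Cyp4f15 were named for these counts after their values were seen. Without passage 2 of mouse_283 edgeR called 2 members and 0.527% of genes.

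Early libraries of mouse_283 differed among themselves by enzyme class and by base composition. On the scale of log2(normalised CPM + 0.5), all 20 GSTs were higher in passage 3 than in passage 2, by a median of 1.54. All 9 UGTs were lower, by a median log2 ratio of -1.25, and 21 of 34 P450s were lower. Members under 45% GC (n = 29) had a median log2 ratio of -1.16 in passage 3 over passage 2 and members of 50% GC or more (n = 31) one of 1.05. For passage 4 over passage 2 these medians were -1.43 and 0.22. In mouse_285 the medians for passage 4 over passage 2 were -0.34 and 0.30. The UGTs had a median GC content of 41.6% and the GSTs one of 51.6%, and they overlapped between 40.4% and 47.2%. At 45 to 50% GC, passage 3 over passage 2 was -0.96 for Ugt1a9 and -1.57 for Ugt1a1. The 5 GSTs there ran from 0.69 for Gstz1 to 1.90 for Gsta1. The P450s there had -2.88 (Cyp1b1) and 0.65 (Cyp1a1). All 9 members in that bin had medians of 0.69 for passage 3 and -0.49 for passage 4 over passage 2. Gsta3, at 40.4% GC, had 0.77 in passage 3 over passage 2. Ugt1a9, Ugt1a1 and Gsta1 are among the genes with much shared sequence, and Ugt1a9, Gstz1 and Cyp1b1 were named after their values were seen. Each of these is a single library, so no test was made. The parts of enzyme class and GC content in these ratios were not tested.

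**Figure D5:**
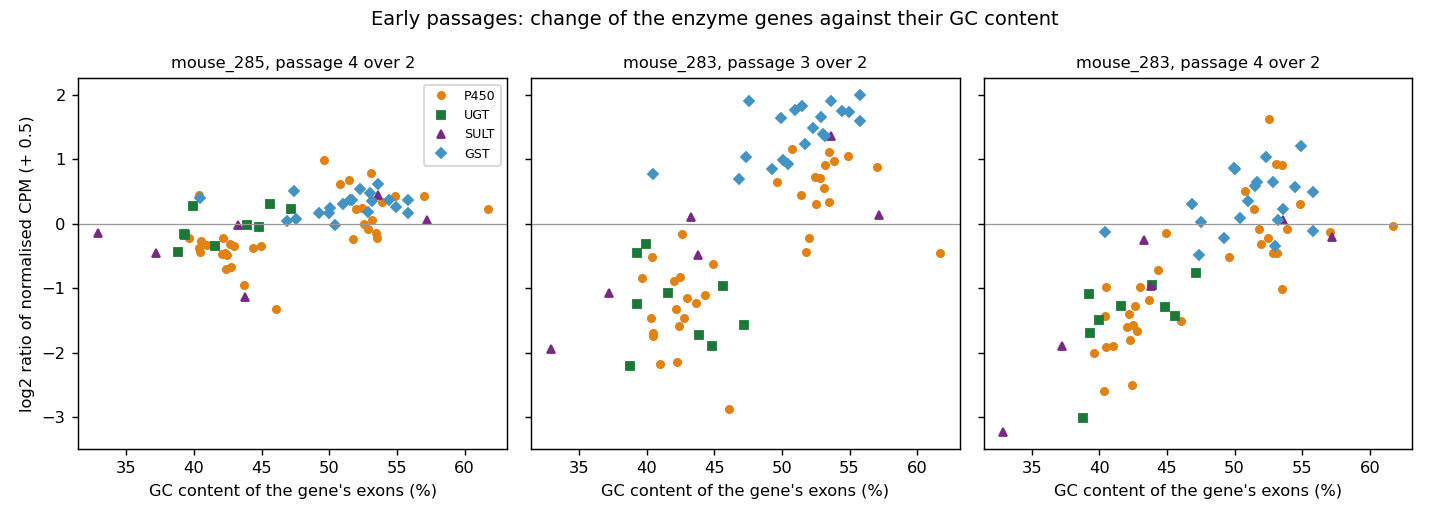
Log2 ratio of normalised CPM (+ 0.5) between early passages (y axis) against GC content in percent (x axis). GC content is that of the exons in each member's longest annotated transcript. Panels show passage 4 over 2 in mouse_285 and passages 3 and 4 over 2 in mouse_283. Each point is a gene, marked by class. In mouse_283 UGTs, with a median GC content of 41.6%, lie below 0 in both panels, while all 20 GSTs lie above 0 in passage 3.

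Other genes of the pathway were read from lists. Of 16 sensors and transcription factors none passed in edgeR with all libraries. Without passages 3 and 4 of mouse_283 Nr1h4 passed as lower (-0.59, adjusted p = 0.0356). Nr1i3, which encodes CAR, had 9.73 normalised CPM late and 16.2 early on average. Its log2 change was -0.74 (adjusted p = 0.14), and -0.89 (adjusted p = 0.0509) without those 2 libraries. Ahr, the aryl hydrocarbon receptor, had 16.9 normalised CPM late and 12.7 early on average, Nr1i2, which encodes PXR, 51.7 late and 61.1 early, and Nfe2l2, which encodes NRF2, 227 late and 141 early. Their adjusted p-values were 0.507, 0.294 and 0.218. Passages 3 and 4 of mouse_283 held the lowest values of Ahr, 4.85 and 4.73, and of Nfe2l2, 64.5 and 64.2. Leaving them out turned the log2 change of Ahr to -0.10, from 0.40 with all libraries, and brought that of Nfe2l2 to 0.21, against 0.69. Of 18 genes for electron and cofactor supply none passed. Por, the reductase that feeds the P450s, had 274 ± 45.9 normalised CPM late and 501 ± 171 early (SD, n = 6 and 5), with a log2 change of -0.85 and adjusted p = 0.0504. Under the GC and length correction the change was -0.44 (adjusted p = 0.0671). Of 33 tested other phase I enzymes Maob, a monoamine oxidase, fell by 1.03 on the log2 scale (adjusted p = 0.0438). Of 11 other phase II enzymes Nat8, which acetylates cysteine conjugates, fell by 1.30 (adjusted p = 0.0234), and Tpst1, which sulfates tyrosines of proteins, rose by 0.86 (adjusted p = 0.0318). Of 17 transporters 2 rose and 2 fell. Abcb1b, a P-glycoprotein gene, had 2.10 normalised CPM late and 0.223 early on average, the early level being close to that of a few reads, and rose by 3.25 (adjusted p = 0.0174), and Abcc4 rose by 1.09 (adjusted p = 0.0369). Abcc6 fell by 0.85 (adjusted p = 0.0318) and the uptake carrier Slco2b1 fell by 1.06 (adjusted p = 0.0395). Of 13 NRF2 targets outside the members Srxn1, which restores peroxiredoxins, fell by 0.79 (adjusted p = 0.0455). The GC and length correction ended that call (-0.55, adjusted p = 0.0566), and Slc7a11, the cystine carrier, with a log2 change of 1.47 (adjusted p = 0.0998) in the uncorrected fit, then passed as higher (1.06, adjusted p = 0.0309), as it did with passages 3 and 4 of mouse_283 left out (0.82, adjusted p = 0.0408). Of 4 AHR targets none passed.

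Cell type markers moved beside these results. Of 18 enterocyte markers 6 fell and none rose late, among them the aminopeptidase gene Anpep, with 687 ± 227 normalised CPM late and 1609 ± 237 early, and Lct, which encodes lactase, with 11.6 ± 12.0 late and 45.4 ± 5.79 early (SD, n = 6 and 5). Alpi, Fabp1, Fabp2 and Dpp4, of the same list, had positive log2 changes of 0.14, 0.07, 0.19 and 0.39 and did not pass. The remaining enterocyte markers that did not pass had negative ones. The summed enterocyte markers were 5095 ± 860 late and 8120 ± 1229 early, and their ranges overlapped. Of 7 tuft cell markers 4 fell, and their sum lay between 6.30 and 12.4 normalised CPM late and between 21.2 and 28.2 early. Of 8 enteroendocrine markers 2 rose, Chgb and Neurod1, and their sum lay between 747 and 1072 late and between 563 and 830.1 early, ranges that overlap. Cck, of the same list, had 69.4 normalised CPM late and 144 early (adjusted p = 0.0928). Of 3 colon markers tested 1 fell, the water channel gene Aqp8, with 0.0659 normalised CPM late and 0.904 early. The late level lay below the limit of 3 reads, which was between 0.104 and 0.198 CPM. No marker of Paneth cells or stem cells passed with all libraries. With passages 3 and 4 of mouse_283 left out, 4 of 7 Paneth cell markers rose, among them Defa30 (2.74, adjusted p = 0.00076). So did 2 of 8 stem cell markers, Ascl2 (2.15, adjusted p = 0.00329) and Axin2 (1.10, adjusted p = 0.008). Rnf43 (-0.25) and Cdk6 (-0.43) had negative changes there and the other stem cell markers positive ones. Passage 4 of mouse_283 had the highest early values of Defa30 (49.48), Ascl2 (94.56) and Axin2 (283.8). For Ascl2 and Axin2 it was above every late library too, so these calls depend on leaving it out. After the GC and length correction no marker of either list passed. The part of these markers in the changes of the enzymes was not tested. In bulk libraries fewer cells of a type and less RNA per cell cannot be told apart.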

How the data were processed

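Bulk RNA of 11 organoid libraries was deposited by the authors as raw read counts per gene, with an unstranded column and a column for each strand. Trimmomatic, STAR and the mouse build mm9 are named, per the submitters' processing notes, which give no roles. Versions and the annotation release are not given in the sources used here. The strand columns held nearly equal shares, so the unstranded count was used. No pair of libraries was a duplicate. Symbols came from GENCODE M21, matched by identifier without version, for 32620 of 37310 identifiers. Exon length, GC content and promoters came from a later build than the files. The promoter coordinates above are those of GRCm38.p6, and none are given in the build of the files.

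Counts were filtered with filterByExpr (14172 genes left), scaled by TMM and tested with edgeR 4.0.16 in R 4.3.3 by the two-sided quasi-likelihood F test, with Benjamini-Hochberg adjustment over all genes tested and a threshold of 0.05. The model held stage and animal. The animal was kept as a block because both stages come from the same 2 animals. The interaction and the changes within each animal came from a model of 4 groups. Normalised CPM are TMM-scaled, and a limit of 3 reads lay between 0.104 and 0.198 CPM, for counting error only. Alternatives were DESeq2 1.42.0, its size factors, no filter, no block, each library left out, passages 3 and 4 of mouse_283 left out, and offsets from a spline on GC content and transcript length, known for 96.7% of genes. The procedure was also run on simulated counts, drawn independently for each library and without a GC trend. That run therefore does not cover the trend of passages 3 and 4 of mouse_283. Members and lists were chosen with earlier results of these data known. Named were members past a threshold, the member of each family with the highest mean CPM and that with the largest change, members at the edge of the rule and list genes past the threshold. Ahr, Nr1i2, Nfe2l2 and Por were named for their roles, and marker genes, Nr1i3, Nr1h4 and Slc7a11 after their values were seen.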

Additional observations from a re-analysis of the deposited data

Results flagged for a closer look

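In 54 groups of libraries checked, a late and an early one for each of 27 named members, 3 held a library far from the others. Chance alone flags about 1 group in 20, so this count is near that rate and is no finding by itself. All 3 were passage 3 of mouse_283, as the highest early library, so they are not independent flags. Gsta4 had 788 normalised CPM there, and the next early library had 439. Gstm4 had 67.3, and the next had 36.8. Gstp3 had 113, and the next had 55.3. All encode glutathione transferases, and the same library had the steepest rise of expression with GC content, 0.974 log2 units per 10 points. The part of that trend in these values was not tested.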

How the results depend on the processing

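Alternatives were run for late against early, the animals, their interaction and the changes within each animal, the last added after seeing the data. No gene among the 11 changed direction. Late against early, members called numbered 18 with no filter on low counts, where 1819 of 23493 genes tested were called. Calls with no filter given above for single members stand beside that background. Members called numbered 7 with no replicate block (3 higher, 4 lower), and 5 to 24 with 1 library left out. Genes called numbered 1343 in DESeq2 (495 higher, 848 lower), 1819 with no filter (1053 higher, 766 lower, which turns the balance), 697 without passages 3 and 4 of mouse_283, 986 after the GC and length correction, and 173 to 4872 with 1 library left out, the highest without passage 2 of mouse_283 (2596 higher, 2276 lower). For mouse_285 against mouse_283, genes called numbered 126 in DESeq2, 207 with no filter, 2 with no replicate block, 107 without passages 3 and 4, 40 after the correction, and 3 to 74 with 1 library left out. Members called numbered 4, 3, 0, 2 and 1 in the same order, and 0 to 2 with 1 left out. The interaction gave 0 to 12 with 1 left out. Within mouse_285 members called numbered 1 with no filter, 6 without passages 3 and 4 of mouse_283, 1 after the correction and 0 to 1 with 1 left out; within mouse_283 they numbered 15, 17 and 10 in that order and 0 to 40 with 1 left out. Without passages 3 and 4, mouse_283 keeps only passage 2 as an early library. Its count of 17 therefore rests on 1 early library, and nothing is concluded from it. Within each animal, the share of all genes called is not given for no filter, for passages 3 and 4 left out or for the correction. Those member counts thus stand without a background. Late against early, the members' median stayed between -0.30 and -0.10 with 1 library left out.

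Named members with changes near 0 turned sign and passed in no fit. Cyp20a1 (-0.13) and Sult1c2 (-0.09) did so after the GC and length correction. Cyp2c55 did so with no filter (0.03) and without single libraries (-0.17 to 0.24 over all 11). Gstm3 did so without passage 3 of mouse_283 (-0.52 to 0.01 over all 11). Ugt1a7c did so without single libraries (-0.24 to 0.25). Gsto1 did so with no filter (0.02), without passages 3 and 4 of mouse_283 (0.34), after the correction (0.14) and without single libraries (-0.13 to 0.20).

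Limits: 2 animals and 1 library for each animal and passage carry every comparison. Low members such as Cyp2d22 rest on few reads late. Reads shared between copies cannot be assigned in Gsta1, Gsta2, Gstp1, Gstp2 and the Ugt1a genes. Stage and any batch cannot be told apart.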
